A study of Mus musculus with 28 samples.

Results

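The 10 genes that encode the writers and erasers of 2 repressive chromatin marks were followed through the development of mouse peripheral nerve: the Polycomb repressive complex 2 (PRC2) subunits Ezh1, Ezh2, Eed and Suz12, the DNA methyltransferases Dnmt1, Dnmt3a and Dnmt3b, and the TET dioxygenases Tet1, Tet2 and Tet3. The list names the genes, which are 10 of the 41605 gene identifiers in the count table. All 10 were among the 17700 genes with enough counts to be tested. The study prepared poly-A RNA libraries from nerves of wild-type C57BL/6J mice at embryonic stages labelled E13 and E17 (the study's design text places both slightly later than these labels), at postnatal days 1, 5, 14 and 24 (P1, P5, P14, P24) and in the young adult (P60), with 4 libraries per stage and 28 in all. The mice were not perfused before the nerves were taken. Each E13 library came from various nerves of 2 pooled embryos and each E17 library from the sciatic nerves of 2 pooled embryos, whereas each postnatal library came from 1 mouse. Epineurium and perineurium were taken off by hand, as far as possible, from E17 on but not at E13, and the labels call the tissue sciatic nerve at every stage. Dissection and age can therefore not be told apart in any comparison with E13.

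PRC2 places methyl groups on lysine 27 of histone H3, a mark of silenced genes. Its catalytic subunit is either Ezh2, which is typical of dividing cells, or the less active Ezh1, which prevails in cells that no longer divide, while Eed and Suz12 are needed for activity and stability of the complex. DNA methylation at CpG sites is copied to the new strand after replication by Dnmt1 and set on unmethylated DNA by Dnmt3a and Dnmt3b. The TET enzymes oxidise methylcytosine, the first step of its active removal. In the nerve, immature Schwann cells divide, then leave the cell cycle and either wrap axons in myelin or become Remak cells.

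Expression is given as CPM (the count of a gene per 1e6 reads of TMM-scaled library size). A value with ± is a stage mean with its SD (n = 4). Total counts were 13899895 to 37662780 per library. In 3 libraries expression followed the GC content of the transcripts: the slope was -0.93 and 0.73 on the log2 scale per 10 GC points in E13 replicates 1 and 4 and -0.43 in P1 replicate 1. The other 25 libraries lay between -0.16 and 0.20. At E13, 3 genes of low GC content were spread widely, with CPM from 16.3 to 71.7 for Suz12, 11.4 to 52.9 for Tet1 and 11.2 to 52.5 for Tet2. Ezh2, with a GC content of 44.4% against 45.4% for Tet2, was spread less, from 48.7 to 107 CPM. Summed Schwann cell markers stood at 499 ± 135 CPM at E13 and 3627 ± 136 at E17, with all 6 higher at E17. From E17 to P60 4 of the 6 rose and Erbb3 fell, and the sum at P14 (56290 ± 5632 CPM) was mostly Mbp (51459 ± 5559). Summed markers of neuronal cell bodies were 199 to 398 CPM in the E13 libraries and 0.170 to 4.00 CPM in all later ones. In bulk tissue, fewer cells of a type and less RNA per cell cannot be told apart.

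Between E17 and P60, the longest interval between stages at which the outer layers were taken off, 1 gene rose and 8 fell (edgeR quasi-likelihood test, adjusted p under 0.05 over all genes tested). Ezh1 was the gene that rose, and Ezh2, Dnmt1, Tet1, Dnmt3b, Suz12, Dnmt3a, Eed and Tet2 fell. Over all genes tested, 32.8% rose and 31.5% fell in this comparison, so a call in itself was common. The median log2 change was -1.01 over the 10 genes and 0.00 over all genes. All 10 genes changed somewhere along the 7 stages, where 88.8% of genes did, and all 10 changed between E17 and P60, where 74.3% did. Scaling by library size alone lowers every log2 change from E17 to P60 by 0.31. It gave 4492 genes higher and 7385 lower in place of 5805 and 5568, and called Tet3 lower too.

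**Figure D1:**
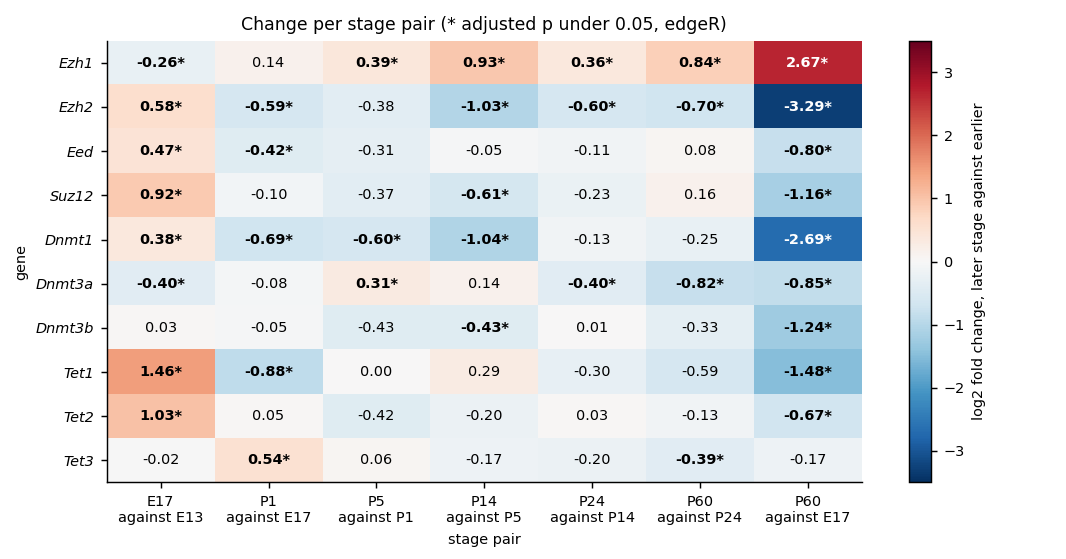
Log2 fold change of the 10 genes (rows) for 6 pairs of adjacent stages and for P60 against E17 (columns), later stage against earlier, with an asterisk where the adjusted p was under 0.05. Ezh1 is the only row with a positive value at P60 against E17 (2.67), and Ezh2 (-3.29) and Dnmt1 (-2.69) have the largest falls.

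The 2 catalytic subunits of PRC2 exchanged places. Ezh1 was at 25.1, 21.2, 18.5 and 21.6 CPM in the E17 libraries, at 61.0, 59.7, 62.0 and 55.4 CPM at P14 and at 142, 131, 138 and 137 CPM at P60. Ezh2 was at 126, 116, 107 and 119 CPM at E17, at 28.9, 30.0, 29.4 and 29.1 CPM at P14 and at 13.1, 11.4, 12.1 and 11.1 CPM at P60. No library of one of these stages overlapped with those of another for either gene. From E17 to P60 Ezh1 rose 6.35-fold (log2 2.67 ± 0.10 SE, adjusted p 3.5e-18) and Ezh2 fell 9.81-fold (log2 -3.29 ± 0.16, adjusted p 3.9e-16).

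The rise of Ezh1 was postnatal and came in steps. It was 21.6 ± 2.73 CPM at E17 and 23.7 ± 1.21 at P1, which did not pass the test (adjusted p 0.315). It then rose at each of the 4 remaining steps, by 1.31-fold to P5, 1.91-fold to P14, 1.28-fold to P24 and 1.79-fold to P60. The call at P24 (adjusted p 0.024) was lost in 8 of 20 other settings and that at P5 in 2, scaling by library size alone among them. Ezh2 fell at birth (1.50-fold, adjusted p 0.002), from P5 to P14 (2.04-fold, adjusted p 3.9e-06), from P14 to P24 (1.51-fold) and again to P60 (1.63-fold). From P1 to P5 its log2 change was -0.38 ± 0.14 (adjusted p 0.067), and P1 replicate 1, one of the libraries with a GC slope, stood at 94.7 CPM above its 3 fellows (71.2 to 73.9). This step was called in 8 of 20 other settings, among them the fit without the 3 libraries with a slope (log2 -0.26, adjusted p 0.006) and, with that library kept, the fit without E13 (log2 -0.41, adjusted p 4.8e-04) and the DESeq2 test (log2 -0.40, adjusted p 0.036).

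The ratio of 2 genes within a library is free of the scaling between libraries. The log2 ratio of Ezh1 to Ezh2 counts was negative up to P5 (-2.44 ± 0.09 at E17, -1.70 ± 0.19 at P1 and -0.94 ± 0.08 at P5). It was positive from P14 on (1.02 ± 0.07), with 1.98 ± 0.12 at P24 and 3.52 ± 0.08 in the adult. The 4 libraries of each stage stood apart from those of both neighbouring stages. Each of the 7 stage pairs reached the smallest p that 4 against 4 libraries allow (two-sided exact permutation test, p 0.029, adjusted p 0.036 over 28 tests). Per kilobase of annotated exon, Ezh1 was 31.9% ± 1.18 of the summed Ezh1 and Ezh2 level at P5 and 64.5% ± 1.16 at P14, having been 14.2% ± 0.747 at E17 and reaching 91.2% ± 0.451 at P60. The order changed over the same interval when the longest transcript was taken as the length (25.7% at P5, 57.3% at P14). The summed level per kilobase of exon was 20.4 at E17, 12.4 at P14 and 20.2 at P60, but 47.0, 24.7 and 36.8 with the longest transcript, so whether adult nerve returned to the embryonic total depends on the length used.

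**Figure D2:**
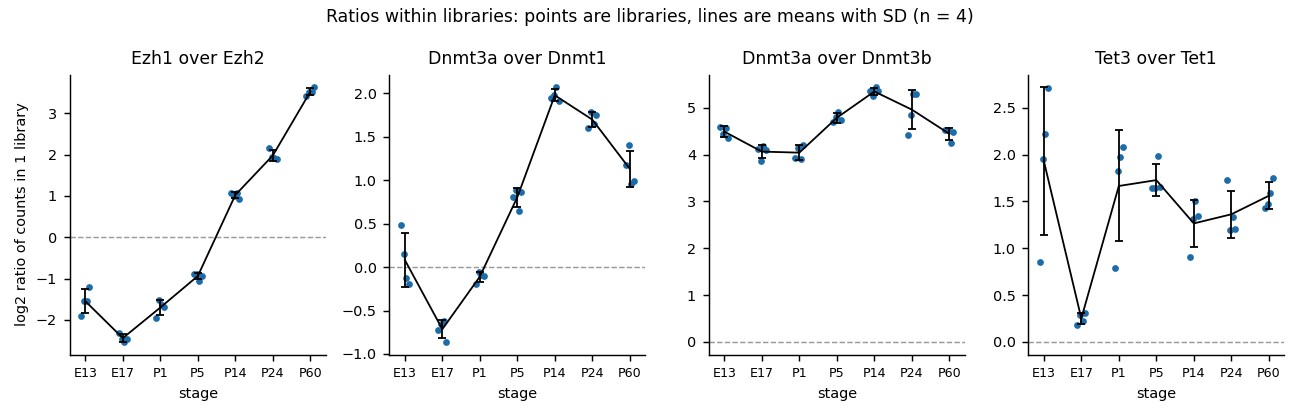
Log2 ratio of the counts of 2 genes in the same library (vertical axes) by stage (horizontal axes), with points for libraries and lines for stage means with SD, n = 4. Ezh1 over Ezh2 climbs from -2.44 at E17 to 3.52 at P60 and crosses 0 between P5 and P14, whereas Dnmt3a over Dnmt1 peaks at 1.98 at P14.

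Sequences before the RefSeq start of both genes are shown because the 2 genes moved in opposite directions. They are on build GRCm38.p6, minus strand, chr11:101226464-101226613 for Ezh1 and chr6:47595059-47595183 for Ezh2, cut to bases that no GENCODE exon covers, with capitals for a CCAAT box on either strand.
Ezh1: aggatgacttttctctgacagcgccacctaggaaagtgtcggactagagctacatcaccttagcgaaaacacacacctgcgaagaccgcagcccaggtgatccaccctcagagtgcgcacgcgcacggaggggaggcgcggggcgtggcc
Ezh2: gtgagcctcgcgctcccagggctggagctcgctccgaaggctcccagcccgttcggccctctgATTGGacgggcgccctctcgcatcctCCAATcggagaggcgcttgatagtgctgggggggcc
The window searched ran from 250 bases before to 50 bases after each start. The Ezh2 window held the box 3 times and the Ezh1 window did not hold it, where 37.4% of the 32851 RefSeq windows of this length did. Windows of Eed, Suz12, Dnmt1 and Tet3 held it too, and Tet3 was not called from E17 to P60. Those of Dnmt3a, Dnmt3b, Tet1 and Tet2, which fell, did not. The word TTTGAA, also searched, stood in windows of Eed, Suz12, Dnmt1 and Dnmt3b and in 17.9% of all windows. The words bound by E2F factors, which drive genes of the G1 to S transition, were searched on both strands as TTTGGCGC, TTTCCCGC, TTTGCCGC and TTTCGCGC. At least 1 of them stood in 2.26% of all windows. Among the 10 genes they were found at the start of Ezh2, before the start of Suz12 and on both sides of the third RefSeq start of Dnmt1, shown here with the word in capitals and in windows of at most 30 bases.
Ezh2, chr6:47595009-47595038, minus strand: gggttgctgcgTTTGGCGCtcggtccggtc
Suz12, chr11:79992876-79992905, plus strand: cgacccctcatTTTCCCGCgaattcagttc
Dnmt1, chr9:20952574-20952601, minus strand: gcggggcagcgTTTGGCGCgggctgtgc
Dnmt1, chr9:20952824-20952853, minus strand: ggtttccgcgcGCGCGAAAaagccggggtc
The word in the last line is on the opposite strand. These are matches of letters and do not show binding, and the windows of the other 7 genes, Ezh1 included, held none of the 4 words. Each of the 4 words holds a CpG. The windows in which they were found held 31 CpG sites for Ezh2, 41 for Suz12 and 33 for the third Dnmt1 start, against a median of 7 over all windows. Which of the 3 Dnmt1 starts was used in nerve was not measured.

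Eed, which reads the mark and stimulates the enzyme, and Suz12, the scaffold of the complex, also fell from E17 to P60. Eed was at 30.3, 34.3, 30.8 and 31.3 CPM at E17 and at 21.1, 17.3, 16.7 and 17.6 CPM at P60, a 1.75-fold fall (log2 -0.80 ± 0.15, adjusted p 4.8e-05). Suz12 was at 78.1, 77.5, 71.5 and 69.7 CPM at E17 and at 35.2, 31.1, 34.8 and 31.4 CPM at P60, a 2.24-fold fall (log2 -1.16 ± 0.23, adjusted p 1.0e-04). The E17 and P60 libraries did not overlap for either gene. The steps that passed were E17 to P1 for Eed, which fell 1.33-fold (adjusted p 0.037), and P5 to P14 for Suz12, which fell 1.53-fold (adjusted p 0.046). Both calls were narrow. Eed lost its call in 9 of 20 other settings and Suz12 in 10 of 20, always with the same sign. From P1 to P5 Suz12 (log2 -0.37, adjusted p 0.298) was called lower in 5 of 20 other settings and Eed (log2 -0.31, adjusted p 0.167) in 3. From P14 on, Eed stayed between 16.0 and 21.1 CPM and Suz12 between 25.9 and 40.4 CPM in every library, and neither passed the test at a later step.

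**Figure D3:**
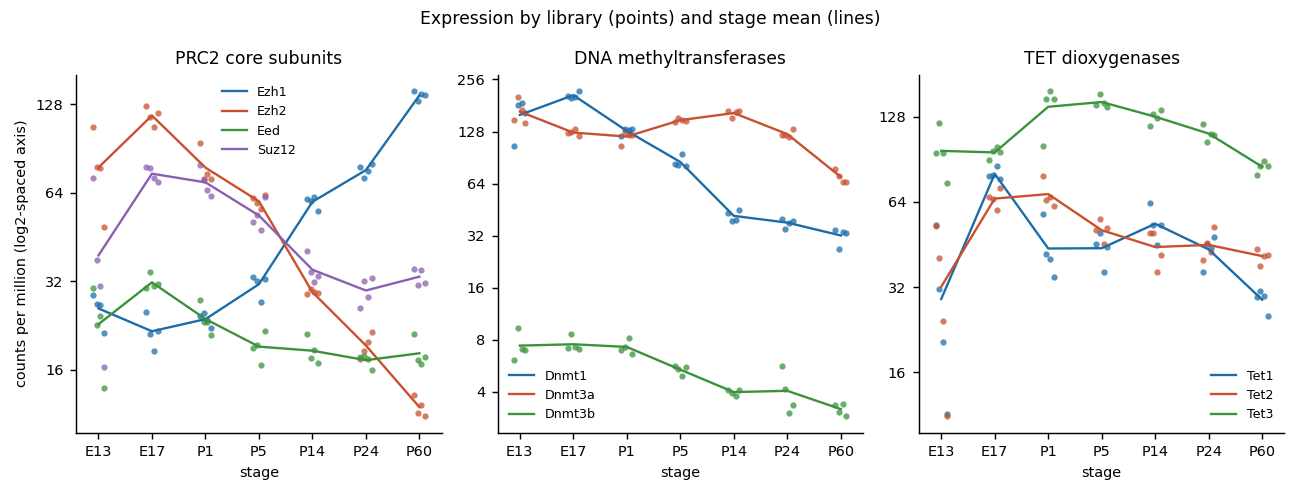
CPM of the PRC2 subunits, the DNA methyltransferases and the TET dioxygenases (vertical axes, log2-spaced) by stage (horizontal axes), with points for single libraries and lines through stage means. Ezh1 passes Ezh2 between P5 and P14, Dnmt1 falls from 208 to 32.1 CPM between E17 and P60, and the 4 E13 libraries are spread most for Suz12, Tet1 and Tet2.

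Dnmt1, the maintenance methyltransferase, fell from E17 to P14. It was at 206, 201, 204 and 220.2 CPM at E17, at 83.5, 82.1, 95.2 and 80.7 CPM at P5, at 43.4, 38.8, 39.5 and 44.9 CPM at P14 and at 34.7, 26.8, 33.8 and 33.0 CPM at P60. The libraries of E17, P5 and P14 did not overlap, and the fall from E17 to P60 was 6.47-fold (log2 -2.69 ± 0.13, adjusted p 4.1e-16). Dnmt1 fell at each step from E17 to P14, by 1.61-fold, 1.51-fold and 2.05-fold. From P14 to P24 (log2 -0.13 ± 0.12) and from P24 to P60 (log2 -0.25 ± 0.12) it did not pass the test, although the P24 and P60 libraries did not overlap. The later step was called in 3 of 20 other settings, with limma-voom (adjusted p 0.023), without E13 (0.022) and without the 3 libraries with a GC slope (0.014).

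Dnmt3a, a de novo methyltransferase, was lowest in the adult and highest midway through myelination among the stages from E17 on. It was at 105 to 128 CPM at P1, 146 to 153 at P5, 153 to 169 at P14, 119 to 132 at P24 and 65.5 to 77.9 at P60. It rose from P1 to P5 (1.24-fold, adjusted p 0.020), a call that 5 of 20 other settings lost. From P5 to P14 (log2 0.14, adjusted p 0.302) it was called higher in 2 of 20. It fell from P14 to P24 (1.32-fold, adjusted p 0.008) and from P24 to P60 (1.77-fold, adjusted p 4.8e-07). Its net change from E17 to P60 was 1.81-fold lower (log2 -0.85 ± 0.10, adjusted p 1.1e-08).

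Dnmt3b, the other de novo methyltransferase, was the lowest of the 10 genes per kilobase at every stage, at 1.48 ± 0.147 CPM per kilobase of exon at E17 and 0.623 ± 0.0497 at P60. Its CPM fell from 7.54 ± 0.750 at E17 to 3.18 ± 0.254 at P60 (2.37-fold, log2 -1.24 ± 0.17, adjusted p 3.9e-07). The single step that passed was P14 against P5 (adjusted p 0.048), and 12 of 20 other settings lost it. P5 against P1 (log2 -0.43, adjusted p 0.061) was called lower in 8 of 20. With 3578 reads in all libraries together it was also the gene with the fewest reads. At P24 its 4 libraries ran from 3.01 to 5.68 CPM.

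The balance between Dnmt3a and Dnmt1 moved at every step. The log2 ratio of Dnmt3a to Dnmt1 counts was -0.72 ± 0.11 at E17, -0.11 ± 0.06 at P1, 0.81 ± 0.11 at P5 and 1.98 ± 0.07 at P14, and came back to 1.70 ± 0.09 at P24 and 1.13 ± 0.20 at P60. All 7 stage pairs differed without overlap (two-sided exact permutation test, adjusted p 0.036). Per kilobase of exon, Dnmt1 made up 75.6% ± 1.40 of the 3 methyltransferases at E17, 34.7% ± 0.994 at P14 and 47.3% ± 3.30 at P60. At P60 the shares of Dnmt1 and Dnmt3a (45.9% ± 3.22) did not differ beyond their spread, and with the longest transcript as the length Dnmt3a was the larger (53.8% against 40.7%). The ratio of Dnmt3a to Dnmt3b rose from a log2 value of 4.04 ± 0.16 at P1 to 4.79 ± 0.10 at P5 and 5.35 ± 0.07 at P14 (exact permutation test, adjusted p 0.036 for both steps). It was 4.96 ± 0.42 at P24 (adjusted p 0.104 against P14) and 4.44 ± 0.13 at P60 (adjusted p 0.133 against P24), with the P60 libraries (4.25 to 4.52) all below those of P14 (5.26 to 5.44).

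The TET genes, whose products start demethylation, did not move together. Tet1 was at 79.2, 79.6, 85.7 and 77.2 CPM at E17, at 58.2, 41.9, 40.3 and 34.9 CPM at P1 and at 29.6, 30.9, 29.7 and 25.4 CPM at P60. The E17 libraries lay above every library of the other stages, of which P14 replicate 1 was the highest at 63.3 CPM. Tet1 fell at birth (1.84-fold, log2 -0.88 ± 0.25, adjusted p 0.009) and over E17 to P60 (2.78-fold, adjusted p 1.6e-05). No later adjacent step passed. P14 against P5 (log2 0.29, adjusted p 0.431) was called higher in 4 of 20 other settings, with adjusted p of 0.025 to 0.046, and P60 against P24 (log2 -0.59 ± 0.26, adjusted p 0.126) passed in 5 of 20 other settings, without the 3 libraries with a GC slope among them (adjusted p 2.4e-04).

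Tet2, a TET enzyme without the CXXC domain of the other two, was at 65.8 ± 4.89 CPM at E17, 68.2 ± 7.50 at P1, 50.9 ± 4.12 at P5 and 41.2 ± 2.38 at P60. It fell 1.60-fold from E17 to P60 (log2 -0.67 ± 0.24, adjusted p 0.018). No single step from E17 on passed the test for Tet2. The P1 and P5 libraries did not overlap (62.1 to 79.1 against 45.5 to 55.5 CPM), and that step (log2 -0.42 ± 0.24, adjusted p 0.254) was called in 4 of 20 other settings, the fit without the E13 libraries among them (adjusted p 8.0e-04).

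Tet3 went the other way at birth. It was at 90.0, 97.1, 100.1 and 95.7 CPM at E17 and at 101, 148, 158 and 148 CPM at P1, a 1.45-fold rise (log2 0.54 ± 0.12, adjusted p 0.001). The lowest P1 value is that of replicate 1, the library with a GC slope, and it still lay above the E17 libraries. Tet3 was at 139 to 154 CPM at P5 and 79.8 to 89.5 CPM at P60, and fell from P24 to P60 (1.31-fold, adjusted p 0.027), a call lost in 9 of 20 other settings. Between E17 and P60 it did not pass the test (log2 -0.17 ± 0.12, adjusted p 0.228), although the P60 libraries were all below those of E17. It was called lower in 4 of 20 other settings, which were limma-voom (adjusted p 0.024), a fit of these stages alone (0.014), the fit without the 3 libraries with a GC slope (0.046) and library size alone (0.001). The step from P5 to P14 (log2 -0.17, adjusted p 0.299) was called lower in 4 of 20 as well. The log2 ratio of Tet3 to Tet1 counts was 0.25 ± 0.06 at E17 and 1.56 ± 0.14 at P60, a difference of 1.31 (exact permutation test, adjusted p 0.036). From P1 on it ran from 0.79 to 2.08, with both ends of that range in P1 libraries.

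Counted step by step, the changes were spread over all intervals. From E17 to P1 Tet3 rose and Ezh2, Eed, Dnmt1 and Tet1 fell, where 15.1% of all genes rose and 14.4% fell. At this step all 10 proliferation genes fell, as did 5 of 5 endothelial, 6 of 6 muscle and 6 of 6 erythroid markers, while 3 of 6 Schwann cell markers rose. From P1 to P5 Ezh1 and Dnmt3a rose and Dnmt1 fell, where 10.3% rose and 7.33% fell. With scaling by library size alone none of the 10 rose there (Ezh1, adjusted p 0.201, and Dnmt3a, 0.427), and Ezh2, Eed and Dnmt3b fell beside Dnmt1. Of the marker lists, 5 of 5 macrophage, 3 of 5 endothelial, 2 of 6 Schwann cell and 2 of 4 adipocyte markers rose from P1 to P5 and 9 of 10 proliferation genes fell. From P5 to P14 Ezh1 rose and Ezh2, Suz12, Dnmt1 and Dnmt3b fell, where 15.4% rose and 14.2% fell. All 10 proliferation genes and 4 of 5 macrophage markers fell at that step, and 3 of 4 perineurial and 3 of 6 Schwann cell markers rose. So did 2 of 4 adipocyte, 2 of 5 fibroblast and 2 of 5 endothelial markers, while 1 Schwann cell marker fell. From P14 to P24 Ezh1 rose and Ezh2 and Dnmt3a fell, in an interval in which 2.72% of genes rose and 2.72% fell, 7 of 10 proliferation genes among the latter. From P24 to P60 Ezh1 rose and Ezh2, Dnmt3a and Tet3 fell, where 6.84% rose and 9.23% fell. There 9 of 10 proliferation genes and 4 of 6 erythroid markers fell and 2 of 4 perineurial markers rose. The part of these cell types in the steps was not tested. With scaling by library size alone the share of rises among all called genes went from 51.3% to 37.5% at E17 to P1, from 58.3% to 26.3% at P1 to P5 and from 52% to 31.3% at P5 to P14. It went from 50% to 62.4% at P14 to P24, from 42.6% to 62.4% at P24 to P60 and from 45.2% to 31.5% at E13 to E17. The counts of 3 genes at P1 to P5 and 5 at P5 to P14 each became 7 without the 3 libraries with a GC slope, and that at P1 to P5 became 8 without the E13 libraries.

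E17 was compared with E13 last because of the different dissection. Tet1, Tet2, Suz12, Ezh2, Eed and Dnmt1 were higher at E17 and Ezh1 and Dnmt3a lower, where 28.1% of all genes were higher and 34.1% lower. Tet1 was at 52.9, 31.5, 20.5 and 11.4 CPM in the E13 libraries, below all E17 libraries (log2 1.46 ± 0.26, adjusted p 1.9e-05). In a fit of the E13 and E17 libraries alone Tet1 was the 1 gene called, and the other 7 had adjusted p values of 0.054 to 0.246, with the same signs. Over all genes, the count called in that fit stayed within 1.5 times the 11014 of the main fit. Among the marker lists, 6 of 6 Schwann cell, 5 of 5 endothelial, 4 of 5 fibroblast, 3 of 4 perineurial and 7 of 10 proliferation genes were higher at E17. Lower were 6 of 6 markers of neuronal cell bodies, 5 of 5 of macrophages, 5 of 6 of muscle and 6 of 6 of erythroid cells (at E13, summed muscle markers ran from 35.8 to 723 CPM and erythroid markers from 668 to 6736 CPM, against 7.61 to 30.3 and 358 to 999.8 CPM at E17). Their part in these differences was not tested.

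The fall of Ezh2 and Dnmt1 ran beside that of cell division genes. The summed level of 10 proliferation genes, such as Mki67, Top2a and Mcm2, was highest at E17 with 2753 ± 33.9 CPM. It stood at 1463 ± 191 CPM at P1, 793 ± 71.3 at P5 and 183 ± 27.8 at P14, then at 86.6 ± 13.3 and 25.8 ± 0.914 CPM in P24 and P60 nerves, and all 10 fell from E17 to P60. Over the 24 libraries from E17 on, the log2 level of this sum and that of each gene had a Pearson r of 1.00 for Ezh2, 0.96 for Dnmt1, 0.92 for Suz12, 0.91 for Dnmt3b, 0.84 for Tet2, 0.76 for Eed, 0.70 for Tet1, 0.53 for Dnmt3a, 0.38 for Tet3 and -0.99 for Ezh1. These libraries share a stage in groups of 4, so r mostly describes 6 stage means and carries no p. After the stage means were removed, r ran from -0.49 (Tet3) to 0.59 (Ezh2) over the 24 libraries and from -0.30 (Tet3) to 0.35 (Dnmt1) over all 28, where Ezh2 had 0.19. At E13, where the list stood at 871 ± 85.5 CPM, Dnmt1 was at 159.7 ± 37.2 CPM, while at P5, with the list at 793 ± 71.3, it was at 85.4 ± 6.62 CPM. From E17 to P60, 4 of 4 perineurial and 4 of 4 adipocyte markers rose, and 5 of 6 muscle and 6 of 6 erythroid markers fell. Summed perineurial markers were at 262 ± 16.8 CPM at E17 and 1243 ± 175 at P60, and adipocyte markers at 0.0646 ± 0.0522 and 101 ± 44.1 CPM. Within P24 the adipocyte sum ran from 1.36 to 77.2 CPM. How much of the outer layers was left on the nerves was not measured. Markers of fibroblasts, endothelial cells and macrophages went both ways: 2 rose and 2 fell of 5 for fibroblasts, and 2 and 1 of 5 for both endothelial cells and macrophages. Markers of neuronal cell bodies passed the filter through E13, so they are not counted here. Their sum was 2.44 ± 1.10 CPM at E17 and 1.12 ± 0.171 at P60. The part of dividing cells and of the other cell types in the changes was not tested.

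**Figure D4:**
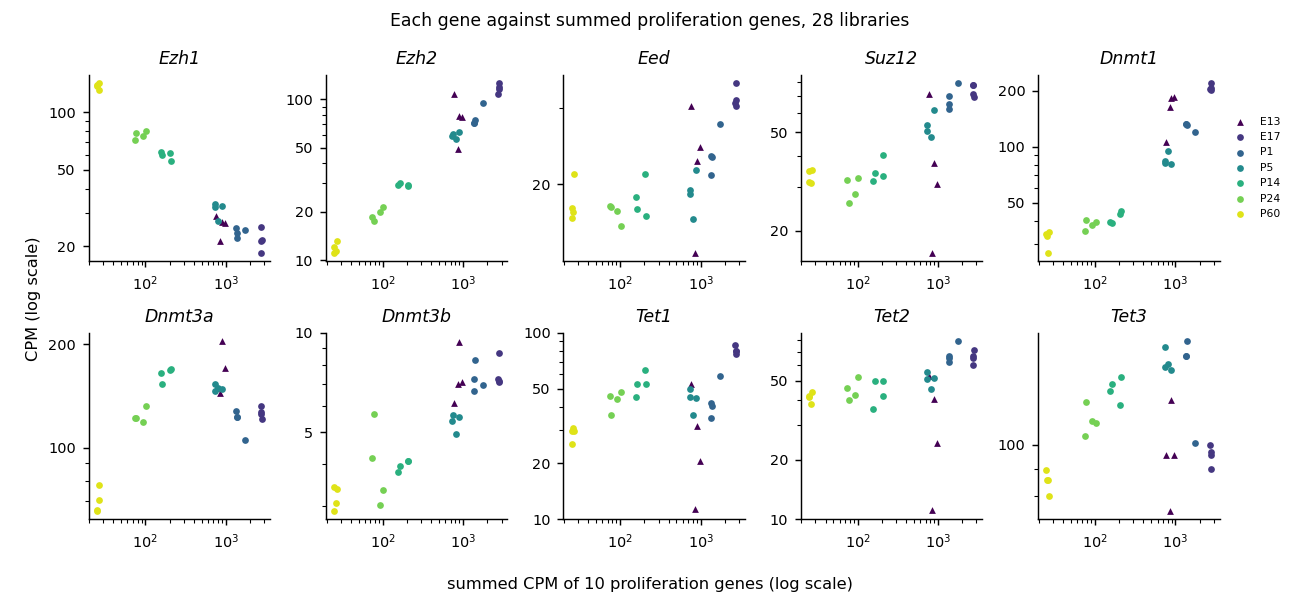
CPM of each of the 10 genes (vertical axes) against the summed CPM of 10 proliferation genes (horizontal axes), both on log scales, 1 point per library coloured by stage, with triangles for E13. Ezh2 rises and Ezh1 falls steadily with the proliferation sum (r 1.00 and -0.99 from E17 on), while Tet3 and Dnmt3a follow no single line.

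Of 8 tested accessory subunits of PRC2, which recruit or tune the complex, 6 fell and 1 rose from E17 to P60, with a median log2 change of -0.80 against 0.00 over all genes, of which 31.5% fell and 32.8% rose. Phf19, a Polycomb-like factor, fell from 18.7 ± 1.52 to 2.00 ± 0.598 CPM (log2 -3.22 ± 0.27, adjusted p 5.0e-11). Epop, also counted among the 6, was at 1.82 ± 0.0961 CPM at E17 and 0.529 ± 0.290 at P60. It passed the filter on low counts through stages other than P60, so its levels are given with no test. Phf1, the paralogue of Phf19, rose from 11.4 ± 0.758 to 40.0 ± 1.22 CPM (log2 1.81 ± 0.18, adjusted p 1.9e-09).

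PRC1, the complex that ubiquitinates histone H2A at Polycomb targets, showed no common direction: 7 of its 20 tested subunits rose and 5 fell, with a median of 0.05, where 32.8% of all genes rose and 31.5% fell. Cbx7, a chromodomain subunit that reads the PRC2 mark, rose from 2.75 ± 0.968 to 134 ± 12.5 CPM (log2 5.61 ± 0.24, adjusted p 2.8e-17), and Cbx6 rose from 81.9 ± 3.36 to 231 ± 22.9 CPM (log2 1.50 ± 0.15). Rnf2, a catalytic ubiquitin ligase, fell from 58.6 ± 2.32 to 34.4 ± 1.96 CPM (log2 -0.77 ± 0.22, adjusted p 0.003). Ring1, the other ligase in the list, rose from 13.6 ± 0.802 to 18.4 ± 0.534 CPM (log2 0.43 ± 0.17, adjusted p 0.029). Kdm2b, which brings PRC1 to CpG islands, fell with a log2 change of -0.64 ± 0.15. Of 5 genes for removal of the H3K27 and H2A marks, with the same shares over all genes and a median of -0.36, none rose, and Kdm6b (log2 -0.57 ± 0.20, adjusted p 0.014) and Bap1 (log2 -0.36 ± 0.14, adjusted p 0.026) fell.

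All 6 tested partners of DNA methylation fell, with a median log2 change of -4.30, where 31.5% of all genes fell and their median was 0.00. Uhrf1, which brings Dnmt1 to newly copied DNA, was at 155 ± 5.65 CPM in E17 nerves and 0.885 ± 0.287 CPM in P60 nerves (log2 -7.44 ± 0.30, adjusted p 8.2e-18), and Cdca7l fell from 37.0 ± 1.22 to 0.518 ± 0.102 CPM (log2 -6.14 ± 0.19, adjusted p 3.9e-20). Dnmt1 itself kept 32.1 ± 3.61 CPM at that age. Pcna and Hells, also in this list, are replication and chromatin remodelling genes of dividing cells, and the proliferation list fell with them. The part of dividing cells in these falls was not tested.

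Of 8 readers of methylated CpG, 3 rose from E17 to P60 and none fell, with a median of 0.09, where 32.8% of all genes rose and 31.5% fell. These were Zbtb4 (37.8 ± 2.76 to 148 ± 7.96 CPM, log2 1.97 ± 0.09, adjusted p 4.0e-17), Zbtb38 (44.3 ± 3.72 to 128 ± 9.30 CPM, log2 1.53 ± 0.15) and Mbd2. Of 7 partners of demethylation and repair, 3 rose and 2 fell, with a median of 0.28 and the same shares over all genes. Gadd45b (log2 3.64 ± 0.31) and Gadd45a (log2 2.54 ± 0.23), stress-induced genes with a proposed role in demethylation, rose from under 1 CPM. Tdg, the glycosylase that removes TET products, fell from 47.0 ± 3.47 to 15.4 ± 1.68 CPM (log2 -1.61 ± 0.12, adjusted p 2.3e-12), and Apex1, which acts after it, fell with a log2 change of -1.35 ± 0.13.

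**Figure D5:**
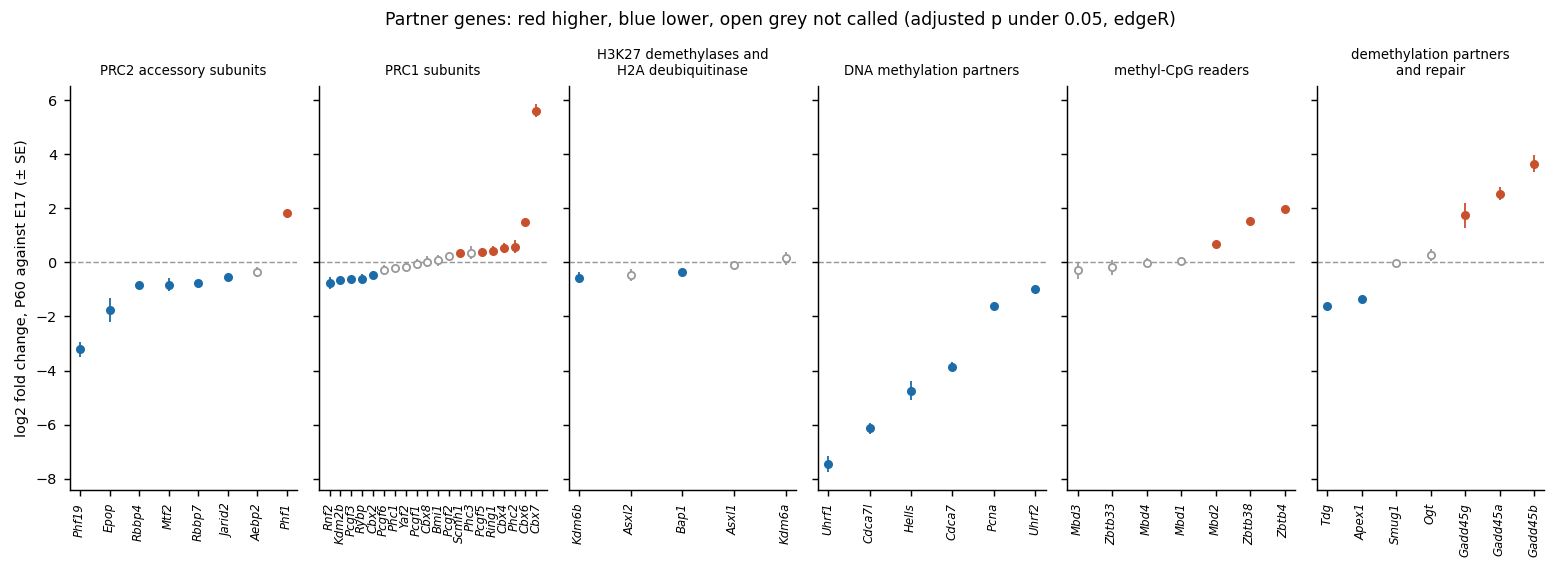
Log2 fold change from E17 to P60 with its SE (vertical axis) of genes tested in 6 lists of partners (horizontal axis, one panel per list), red where higher, blue where lower and open grey where not called. All 6 DNA methylation partners lie below 0, down to -7.44 for Uhrf1, and Cbx7 at 5.61 is the highest point.

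Genes that these marks are known to silence were low at both ages. Of 10 germline genes held silent by promoter methylation in somatic tissue, 7 had too few counts to be tested, and the 10 together summed to 6.77 ± 0.689 CPM at E17 and 11.4 ± 0.901 at P60. Of the 3 tested, Brdt rose from 5.71 ± 0.481 to 9.81 ± 1.15 CPM (log2 0.78 ± 0.15, adjusted p 4.8e-05) and made up most of that sum. Tdrd1, too low at P60 to pass the filter there, had 41 counts over the 4 E17 libraries and 1 count over the 4 P60 libraries (ratio 0.0323 per scaled read, 95% exact counting interval 8.0e-04 to 0.190).

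Of 5 genes known as PRC2 targets, Olig1 had no count at E17 or P60 and passed the filter on low counts through E13, and Shh and Cdkn2a passed it through stages other than E17 and Gdnf through stages other than P60. Levels are therefore given for these, with no test and no count over the list. The inhibitor of the cell cycle Cdkn2a was at 0.260 ± 0.101 CPM at E17 and 1.45 ± 0.740 at P60, and Cdkn2b rose from 2.86 ± 0.303 to 5.64 ± 1.03 CPM. Shh, a morphogen, had no count in any E17 library and 58 counts over the P60 libraries, at least 25.6-fold higher than a floor of 3 counts over the E17 group allows. Gdnf, a neurotrophic factor, was at 4.55 ± 0.912 CPM at E17 and 0.283 ± 0.265 at P60. Neither mark was measured here.

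For each of the 10 genes, the genes with the most similar course were taken by the Pearson r of log2 CPM over the 28 libraries, as a description. Ezh2 was most like Sgo1, Cdc7 and Tpx2, and Dnmt1 most like Mcm3, Cenpa and Tacc3, each with r of 0.99. Ezh1 was most like Spp1 (r 0.99), Cbx7 (r 0.98) and Serpina3n (r 0.98). Dnmt3a was most like Igf2 (r 0.92), Mir675 (r 0.91) and H19 (r 0.90). Mir675 is made from the H19 transcript, so the reads of these 2 are not independent. Dnmt3b was most like Hmga2, Rcc1 and Cenpu (r 0.94 each).

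Suz12 was most like Smarca5, Rps6ka3 and Bclaf1 (r 0.98 to 0.99), Tet2 most like Zbed6, Zc3h11a and Nktr (r 0.97), Tet1 most like Zbtb26, Dcp2 and Rpe (r 0.93 to 0.94), Eed most like Sdcbp, Galnt7 and Ugdh (r 0.93 to 0.94) and Tet3 most like Zfp532, Tll2 and Celsr2 (r 0.85 to 0.91). Over the 24 libraries from E17 on, the 3 most similar genes were all others for Suz12 and Tet2. Cbx7 and Serpina3n then ranked 12 and 27 for Ezh1, and Mir675 and H19 ranked 6 and 14 for Dnmt3a, for which Glb1 came first. From E17 on, Ezh1 and Ezh2 had r of -0.98 with each other.

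The order of levels, taken per kilobase of exon, turned over during development. At E17 it ran from Dnmt1 (28.2 ± 1.17 CPM per kilobase) over Ezh2 and Suz12 (15.0 ± 0.859) down to Tet2 (3.90 ± 0.290), Ezh1 (2.90 ± 0.367) and Dnmt3b. At P60 Ezh1 led with 18.4 ± 0.586 CPM per kilobase, and Suz12 (6.70 ± 0.441), Tet3 (5.10 ± 0.240), Eed (4.74 ± 0.515), Dnmt1 (4.35 ± 0.489) and Dnmt3a (4.20 ± 0.348) followed. Along the run from Tet3 over Eed and Dnmt1 to Dnmt3a, neighbours did not differ by more than their SDs. Ezh2 ranked 9 of 10 at P60 with 1.78 ± 0.134 CPM per kilobase. With the longest transcript as the length Ezh2 led at E17 and Ezh1 again at P60.

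The 10 genes stand on 8 chromosomes. Ezh1 (chr11:101191115-101226463, minus strand) and Suz12 (chr11:79993106-80034123, plus strand) share chromosome 11, and Ezh2 (chr6:47530139-47595341, minus strand) and Tet3 (chr6:83362373-83459084, minus strand) share chromosome 6 (GENCODE M21, GRCm38). The other places are chr7:89954654-89980983 for Eed, chr9:20907209-20959888 for Dnmt1, chr12:3806007-3914443 for Dnmt3a, chr2:153649450-153687730 for Dnmt3b, chr10:62804570-62908996 for Tet1 and chr3:133463679-133545139 for Tet2. Eed shares 261 bases of exon with E230029C05Rik on the opposite strand, which had 554 counts against 13693 for Eed, and the other overlapping genes had at most 129 counts each. Their 14 promoter windows held 2 to 57 CpG sites, against a median of 7 over all windows. The richest were those of Tet2 (57), the first 2 starts of Dnmt3a (46 and 47) and Suz12 (41), and the first start of Dnmt1 had 2.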

How the data were processed

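Stages and replicate numbers came from the sample labels, and only this timeline was used. The authors made stranded TruSeq mRNA libraries, sequenced them on a HiSeq4000 and deposited raw read counts per gene, not normalised. The submitters' processing notes name bcl2fastq, STAR 2.6.1c, featureCounts and the build GRCm38.p5, whereas the methods name a human build. Strand use and multi-mapping in the counting are not given in the sources used here. Names, places, lengths and GC came from GENCODE M21, and sequences from RefSeq (GRCm38.p6), which matched all 10 genes.

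Counts were filtered by filterByExpr with stage as group, scaled by TMM and fitted in edgeR 4.0.16 (R 4.3.3; estimateDisp, robust glmQLFit, glmQLFTest) with stage as the only term. All 28 libraries entered 1 fit, with Benjamini-Hochberg adjustment over 17700 genes and no fold minimum. The SE of a log2 change is its size over the square root of F. Ratios used counts plus 0.5. The smallest exact p of 4 against 4 libraries is 0.029. The 10 genes had 3578 (Dnmt3b) to 85084 (Dnmt3a) counts over all libraries, at totals of 13899895 to 37662780 per library. Counting intervals and floors cover counting error only.

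Replicate pairs had a chi-square per degree of freedom of 5.21 to 293 over 42 pairs, and each library counted as 1. Same-numbered libraries of 2 stages had a mean correlation of deviations of 0.16 (-0.55 to 0.82), with 57 of 84 pairs over 0.1 against 76 of 252 pairs with different numbers (mean -0.05). Libraries with the same number were thus more alike on average than others, and what they share was not tested. Not every pair was over 0.1, and the numbers were not used as pairs in the main fit. At each stage the study took 2 samples from male and 2 from female mice. Labels do not give sex per library, and it was not used. The test was tested on simulated data for P5 against P1: 98 of 100 changes of 4-fold and 84 of 100 of 2-fold were recovered, with 12 false calls among 17140 genes. The simulated counts were independent, followed the trended dispersion and changed only in genes above a floor of expected counts. They held no GC slopes, no wider spread at E13 and nothing shared by replicate number, so these rates do not cover such features.

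The 10 genes, the lists and the tests were chosen with earlier results of these data known. Named were all 10 genes, the 2 largest called rises and falls from E17 to P60 of each list other than proliferation and cell type markers, and for each gene the 3 others with the highest r. Other list genes named were chosen after their values were seen. In these lists 1 gene is counted but not reported here by itself, in text or figures. Alternatives were DESeq2 1.42.0 size factors and tests, library size only, 2 other filters, limma 3.58.1 voom with quality weights, fits on the compared stages or without E13, a replicate block, a 2-fold minimum, removal of GC trends (lowess), leaving out the 3 libraries with GC trends, and leaving out each replicate. Figures were drawn with matplotlib 3.10.9.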

Additional observations from a re-analysis of the deposited data

Results flagged for a closer look

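In 3 of the 70 groups of 4 libraries (10 genes at 7 stages), the highest or lowest library stood further from the others than Dixon's test at the 95% level allows. Chance alone marks about 1 in 20 groups. At P1, replicate 1 held 94.7 CPM of Ezh2, above 71.2 to 73.9 in the other libraries, and 120.2 CPM of Dnmt1, below 131 to 133. This library had a GC slope of -0.43 (log2 per 10 GC points), and the part of that slope in both values was not tested. At E17, replicate 2 held 8.66 CPM of Dnmt3b, above 7.10 to 7.25 in the others.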

How the results depend on the processing

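The count of called genes among the 10 stayed within 1.5 times from E17 to P60 and over all stages in every setting. Of 70 changes of a gene between 2 stages, 37 were called, 9 of them in each of 19 or 20 settings, and none reversed. A 2-fold minimum was among these settings, so every call under 2-fold was lost there by its size alone. It is also part of each count of settings that lost a call. Of the uncalled changes, 11 changed sign in a setting. Between P1 and P5 the count was 5 with CPM over 1 in 4 libraries as filter or with DESeq2, 8 with limma-voom or without E13, 7 in a fit of these stages alone or without the 3 libraries with GC trends, and 6 with GC trends removed. Under library size alone the calls there were 4 falls and no rise. Between P5 and P14 it was 3 with DESeq2 size factors or no filter, and 8 with limma-voom or these stages alone. Between E13 and E17 it was 5 with library size alone and 1 with these stages alone, while the count over all genes stayed within 1.5 times that of the main fit. With a 2-fold minimum it was 2 from E13 to E17 and from P5 to P14, and 0 at the other 4 steps, where edgeR without that minimum called 3 to 5.

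Over all genes, limma-voom called 9315 (E17 to P1), 6739 (P1 to P5), 9061 (P5 to P14), 3416 (P14 to P24) and 5765 (P24 to P60), against 5225, 3114, 5233, 964 and 2845. Fits of the compared stages alone called 4802, 8245, 2030 and 4496 at the last 4 steps. Fits without E13 called 5865 (P1 to P5), 2421 (P14 to P24) and 5205 (P24 to P60), and with GC trends removed 4848, 1865 and 4529. Without the 3 libraries with GC trends the counts were 7845, 4899, 8051, 2519 and 5410 from E17 to P60. A 2-fold minimum left 6276 from E13 to E17, then 2074, 1033, 2127, 469 and 1055, and 7035 from E17 to P60. Why these counts differ was not tested, beyond the 2-fold minimum, which can only lower them.

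Without 1 replicate the count of the 10 genes from P5 to P14 was 3 to 4, and that for any change from E17 to P60 was 9 to 10. The log2 ratio of Tet3 to Tet1 changed by -2.04 to -1.42 (E13 to E17), 1.28 to 1.71 (E17 to P1), -0.54 to -0.34 (P5 to P14) and 0.13 to 0.32 (P24 to P60). That of Dnmt3a to Dnmt3b changed by 0.31 to 0.44 (E17 to P60) and -0.70 to -0.41 (P24 to P60), and that of Dnmt3a to Dnmt1 by -0.66 to -0.52 (P24 to P60). In each of these 7 ranges at least 1 value moved across the threshold of the adjusted p, and the cause was not tested. With the replicate number as a block, the 10 genes had 4 calls from P5 to P14 (Dnmt3b, adjusted p 0.054, was lost) and no other call changed. The labels give nothing that these numbers share. Dnmt3b had the fewest counts, 3578 over all libraries.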
